A study of Triticum aestivum with 6 samples.

Results

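Mycorrhizal roots of bread wheat held 70 transcripts that were already expressed in non-mycorrhizal roots and lay over 8-fold higher in every mycorrhizal library. They were chosen from the deposited FPKM values (fragments of a transcript scaled by its length and by the size of the library). Each has at least 1 FPKM in every non-mycorrhizal (NM) library, and its lowest value in the mycorrhizal (AM) libraries is at least 8 times its highest NM value. Of the 114264 IDs in the table, 100231 carry a wheat chromosome in the ID, and 45778 of these reached 1 FPKM in every NM library once identical rows were counted once. The 70 members are 0.153% of those 45778 expressed IDs. Because the AM and NM values made the choice, the distance between the groups is given here as a description and is not tested. Leaving out 1 library removes a condition and so can only add IDs. It gave 70 IDs (without AM replicate 3) to 110 IDs (without NM replicate 3) under the same limits.

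Root messenger RNA was sequenced in 6 libraries of wheat (Triticum aestivum, cultivar Chinese Spring), with 3 biological replicates in each group. The AM plants were inoculated with an arbuscular mycorrhizal fungus, named in the series title as Rhizophagus irregularis, and their sample titles add a molecular signal without naming it. The NM plants had neither. Plants of both groups are described as grown in pots of steam-sterilized soil mixed with quartz sand, and the sources used here do not give the stage or extent of colonization. Summed FPKM ran from 1136829 to 1173815 in AM libraries and from 1161055 to 1193206 in NM libraries. Depth in fragments is unknown. None of the members (0 of 70) matched an identifier of the 155467 reference genes, so no member has a gene name or a role here, and the root identity of the samples could not be checked against marker genes.

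Arbuscular mycorrhizal fungi grow into the root cortex and form branched structures inside living cells, where they pass phosphate and other minerals to the plant in exchange for carbon. The plant prepares for this with a common symbiosis signalling pathway, and many of its genes for nutrient and lipid transfer are switched on in cells that hold the fungus. Some such genes are silent without the fungus, while others already have a basal level in root tissue. Every member was measurable in NM roots, and the IDs do not tell which of them, if any, take part in the symbiosis. In whole roots, more cells that express a gene and more RNA per cell cannot be told apart.

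Among the 45778 expressed IDs, the ratio of the lowest AM value to the highest NM value had a median of 0.746. It was above 1 in 9070 IDs, at least 2 in 882, at least 4 in 224 and at least 8 in the 70 members. The reverse pattern was rarer. Of 47564 IDs with no AM library under 1 FPKM, 8 had a lowest NM value at least 8 times the highest AM value. Another 7 loci, all with the XLOC prefix and no chromosome in the ID, met the limits of the members among 8277 expressed IDs of other prefixes, and their AM means ran from 19.6 to 171.8 FPKM.

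**Figure D1:**
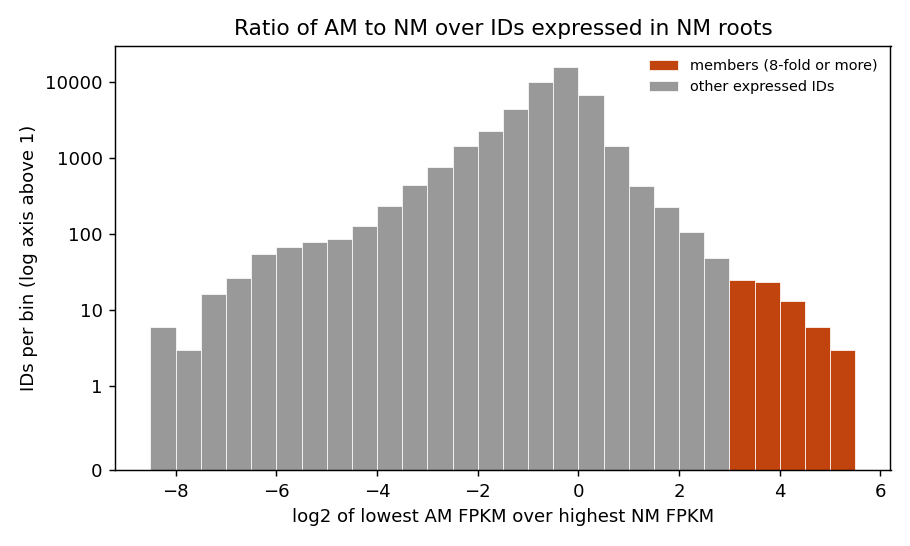
Number of IDs (vertical axis, logarithmic above 1) by the log2 ratio of the lowest AM FPKM to the highest NM FPKM (horizontal axis), over the 45778 expressed IDs, without 590 IDs whose lowest AM value is listed at 0. The 70 members, in red, form the right end of a tail that thins steadily, with 48 IDs in the last bin below the limit and 25 in the first bin above it.

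The limit cuts through a continuous tail. Just inside it, Traes_2AL_7D6E0B79A had 69.2, 70.9 and 112 FPKM in AM replicates 1, 2 and 3, against 8.54, 5.31 and 6.00 FPKM in NM replicates 1, 2 and 3, a ratio of lowest AM to highest NM of 8.10. Traes_2AS_5E489223E, with 179, 192 and 237 FPKM in AM and 21.5, 13.2 and 19.0 FPKM in NM, had a ratio of 8.36. Traes_4DL_09493D0EA had 21.5, 23.5 and 25.7 FPKM in AM and 2.50, 1.17 and 2.15 FPKM in NM, a ratio of 8.61. Just outside, the ratio was 7.88 for Traes_5DL_828B0D1D0, 7.83 for Traes_4AL_433F090E0 and 7.62 for Traes_4AL_4EA94C33C. The first of these had 55.4, 63.1 and 104 FPKM in AM and 5.39, 6.14 and 7.03 FPKM in NM. The IDs on both sides of the limit therefore differ little in ratio.

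In AM roots the members were mostly abundant. Their AM mean ran from 18.9 to 1316 FPKM, with a median of 87.1 FPKM, and 34 members reached 100 FPKM. Their NM mean ran from 1.08 to 43.1 FPKM, with a median of 3.26 FPKM, and in 36 members the highest NM value was under 5 FPKM. The AM mean was 11.3 to 63.3 times the NM mean, with a median of 24.4. Together the members held 0.907% ± 0.297 (SD, n = 3) of the summed FPKM in AM libraries and 0.0354% ± 0.0028 (SD, n = 3) in NM libraries. By library these shares were 0.714%, 0.757% and 1.25% in AM replicates 1, 2 and 3, and 0.0324%, 0.0358% and 0.0379% in NM replicates 1, 2 and 3. The direction of this gap is fixed by the choice of members.

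A pair of members on the long arms of group 4 stood above all others. Traes_4DL_977B1E948 had 930, 849 and 2168 FPKM in AM replicates 1, 2 and 3, against 11.6, 68.0 and 49.8 FPKM in NM replicates 1, 2 and 3. It had both the highest AM mean and the highest NM mean of the set, and its NM replicate 1 lay well below the other NM libraries. Traes_4BL_5F717F1BE followed with 725, 728 and 1291 FPKM in AM, against 24.1, 20.96 and 49.3 FPKM in NM. Here NM replicate 3 was the high one. These 2 IDs made up 19.7%, 17.8% and 24.4% of the members' summed FPKM in AM replicates 1, 2 and 3, and 9.38%, 20.8% and 22.5% in NM replicates 1, 2 and 3.

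The next in abundance lay on arms 5BL, 2AL and 7DL. Traes_5BL_A11EFC122 had 325, 302 and 708 FPKM in AM and 6.33, 31.4 and 10.4 FPKM in NM. Traes_5BL_72B476ADC, on the same arm, had 259, 293 and 588 FPKM in AM and 2.15, 13.5 and 12.6 FPKM in NM. In both, AM replicate 3 was about as far above the other AM libraries, while NM replicate 3 lay near NM replicate 2 in the second ID only. Traes_2AL_A38FEE372 had 292, 232 and 444 FPKM in AM and 23.3, 7.23 and 17.9 FPKM in NM. Traes_7DL_28AF4D23A was level across the AM libraries, with 332, 292 and 320 FPKM, and had 22.5, 14.2 and 28.4 FPKM in NM. It had the third highest NM mean of the members, 21.7 ± 7.13 FPKM (SD, n = 3).

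The ratio of lowest AM to highest NM is raised, by its form, where NM values are low and even. Such NM values did not always go with a wide separation. Traes_2BS_B1A73C7A8, picked after its values were seen, had 1.08, 1.00 and 1.17 FPKM in NM and a ratio of 12.9. Traes_2BL_C26ACA550 led with 61.6, 67.3 and 76.9 FPKM in AM replicates 1, 2 and 3, against 1.32, 1.43 and 1.14 FPKM in NM replicates 1, 2 and 3, so that its lowest AM value was 43.1 times its highest NM value. Traes_5BL_3DB4642B2 was similar in level, with 54.5, 71.5 and 71.6 FPKM in AM and 1.40, 1.60 and 1.27 FPKM in NM, a ratio of 34.0. Across the 6 libraries the ratio of one of these IDs to the other varied by no more than 1.27 times. Traes_5DS_B0BE4E0F9 had 104, 87.0 and 206 FPKM in AM and 2.64, 1.89 and 2.35 FPKM in NM, a ratio of 33.0. Only these 3 members reached a ratio of 32, and 22 of the 70 reached 16.

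The other members among the 6 with the largest ratios lay between 1.03 and 3.62 FPKM in the NM libraries. Traes_7DL_4C9302CF2 had 65.1, 55.6 and 147 FPKM in AM and 1.99, 1.03 and 1.22 FPKM in NM, a ratio of 27.9. Traes_4BS_27217AD61 had 43.9, 102 and 108 FPKM in AM and 1.58, 1.27 and 1.17 FPKM in NM, a ratio of 27.8. In this ID the low AM library was replicate 1 alone. Traes_2AL_8CB04A12D had 100.3, 96.7 and 106 FPKM in AM and 3.62, 2.63 and 3.48 FPKM in NM, a ratio of 26.7, and both its groups were level. An FPKM near 1 can rest on few fragments, and without counts its error is unknown, so ratios over such values are less certain than those of the 15 members with no NM library under 5 FPKM.

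**Figure D2:**
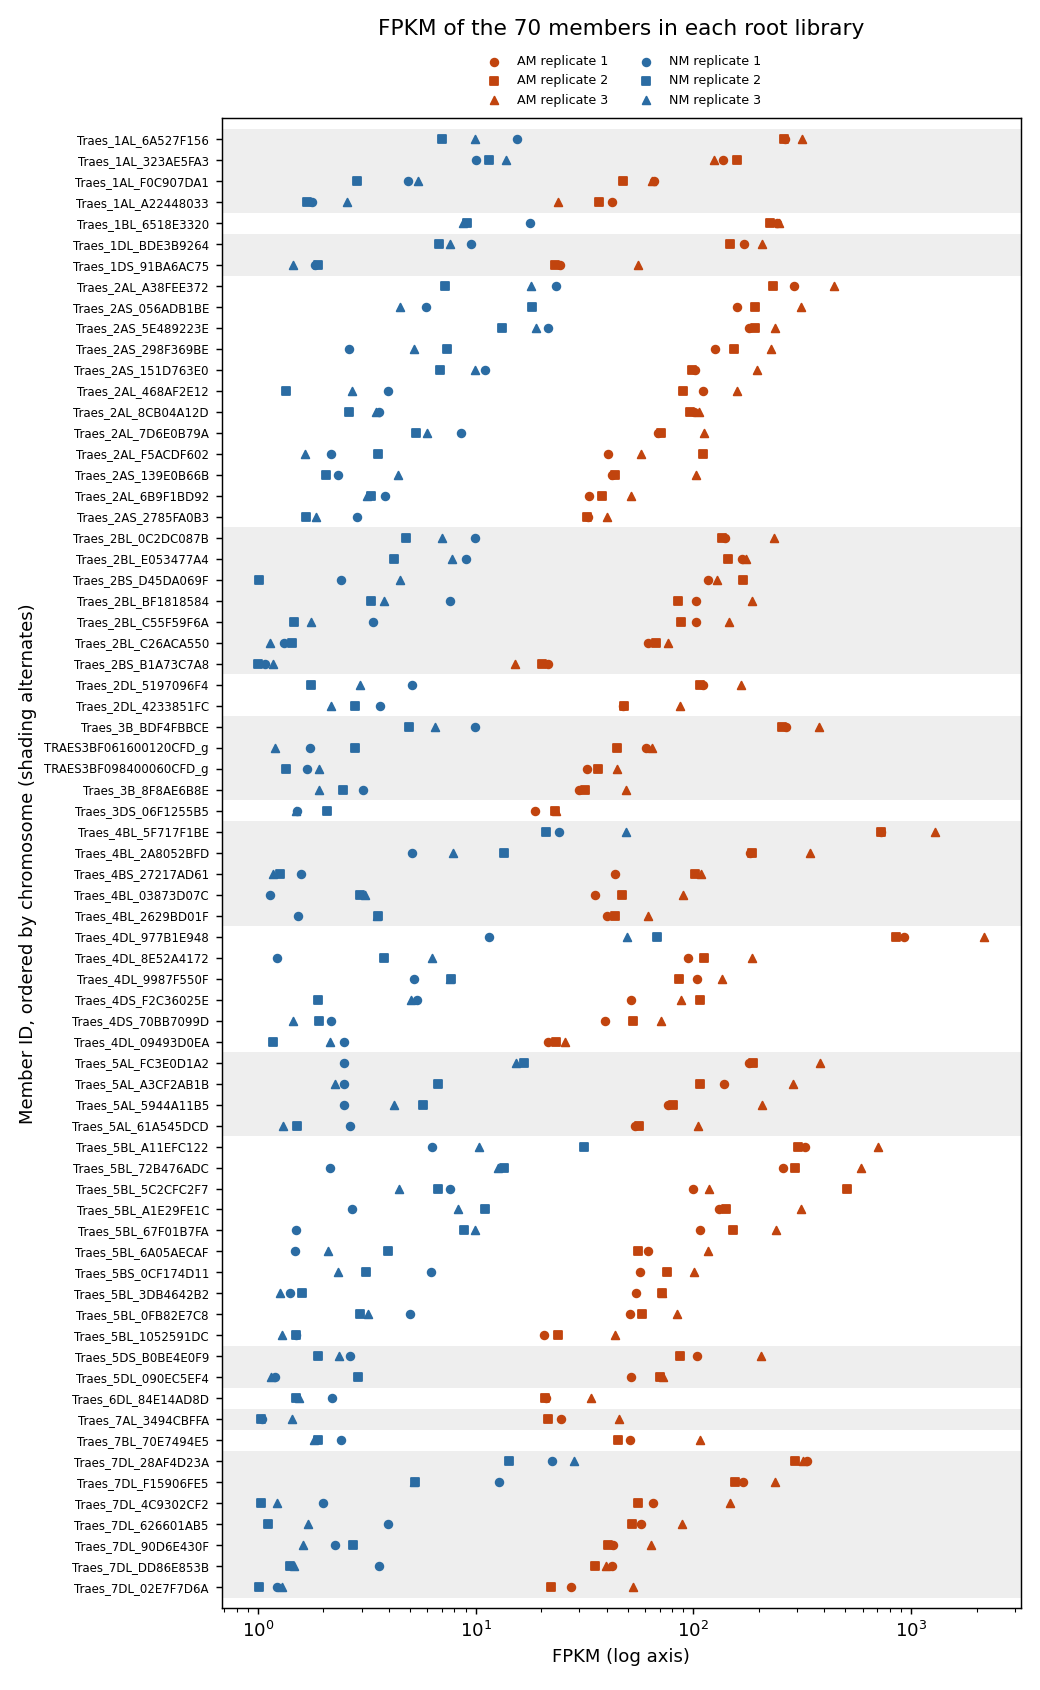
FPKM (horizontal log axis) of the 70 members in each library, 1 row per member, ordered by chromosome and then by AM mean, with AM libraries in red and NM libraries in blue and a marker shape for each replicate. The red triangles of AM replicate 3 are the rightmost marker in 60 rows, and the blue circles of NM replicate 1 lie far left in several rows of chromosomes 4D, 5A and 5B.

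On group 1 the members with the highest AM mean of their chromosome had AM means between 175 and 280.4 FPKM. Traes_1AL_6A527F156 had 264, 261 and 316 FPKM in AM and 15.6, 7.03 and 9.90 FPKM in NM. Traes_1BL_6518E3320 had the most even AM values of all members, 241, 225 and 248 FPKM, and 17.8, 9.12 and 8.78 FPKM in NM. Traes_1DL_BDE3B9264 had 172, 148 and 206 FPKM in AM and 9.51, 6.80 and 7.63 FPKM in NM. All 3 lie on a long arm, and in each NM replicate 1 was the highest NM library. Both traits were common, as 51 of the 70 members lay on a long arm. NM replicate 1 was the highest NM library in 35 of the 70 (50%), against 31.1% of all expressed IDs. Whether they are homoeologous copies, the counterparts of a gene on the A, B and D subgenomes, cannot be read from the IDs.

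On group 2 the leading B and D members also had their highest NM value in replicate 1. Traes_2BL_0C2DC087B had 140.4, 136 and 234 FPKM in AM and 9.94, 4.80 and 7.01 FPKM in NM. Traes_2DL_5197096F4 had 111, 108 and 166 FPKM in AM and 5.13, 1.76 and 2.95 FPKM in NM. This 2DL member ran almost in proportion to Traes_2AL_468AF2E12, a member at 110.2, 89.6 and 158 FPKM in AM and 3.98, 1.34 and 2.71 FPKM in NM, with a ratio between the IDs that varied by 1.30 times over the 6 libraries. That ID was singled out after its values were seen.

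Groups 3 and 6 held the fewest members, 5 and 1. Traes_3B_BDF4FBBCE had 267, 255 and 379 FPKM in AM and 9.94, 4.94 and 6.49 FPKM in NM, and its AM mean of 300.2 FPKM was the highest of group 3. Traes_3DS_06F1255B5, the sole member on 3D, had 18.8, 23.2 and 23.3 FPKM in AM and 1.52, 2.07 and 1.5 FPKM in NM. The sole member of group 6, Traes_6DL_84E14AD8D, had 20.98, 20.9 and 33.8 FPKM in AM and 2.19, 1.49 and 1.55 FPKM in NM. These last IDs are among the least abundant members in AM roots.

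Chromosomes 7A and 7B each held 1 member. Traes_7AL_3494CBFFA had 24.6, 21.4 and 45.4 FPKM in AM and 1.05, 1.03 and 1.44 FPKM in NM. Traes_7BL_70E7494E5 had 51.3, 45.2 and 107 FPKM in AM and 2.42, 1.89 and 1.82 FPKM in NM. In both IDs AM replicate 3 was roughly 2 times the other AM libraries.

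The AM libraries did not stand at equal levels. AM replicate 3 was the highest AM library in 60 of the 70 members (85.7%), AM replicates 1 and 2 in 5 each. Over IDs with a ratio of 4 to 8 the share with AM replicate 3 highest was 82.5% of 154, over those with a ratio of 2 to 8 it was 76.5% of 812, and over all 45778 expressed IDs it was 32.2%. The median ratio of AM replicate 3 to AM replicate 1 was 1.61 in the members and 0.974 in the 45188 expressed IDs above 0 in every AM library. AM replicate 2 matched AM replicate 1, with a median ratio of 1.00 in the members. These shares describe 3 libraries, and the differences between the sets were not tested.

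Single members left this order. Traes_5BL_5C2CFC2F7 had the most uneven AM values, 99.9, 510 and 118 FPKM in replicates 1, 2 and 3, where AM replicate 2 was 5.10 times replicate 1, against 7.67, 6.69 and 4.43 FPKM in NM. Traes_2AL_F5ACDF602 was also highest in AM replicate 2, with 40.6, 110.2 and 57.8 FPKM in AM and 2.16, 3.57 and 1.64 FPKM in NM. The next most uneven, Traes_5AL_5944A11B5, followed the common order, at 76.3, 80.8 and 206 FPKM in AM and 2.48, 5.76 and 4.23 FPKM in NM. Over all members the highest AM value was a median of 1.76 times the lowest, and in 21 members it was under 1.5 times. The median was 1.62 in IDs with a ratio of 4 to 8. It was 1.38 in the 45188 expressed IDs above 0 in every AM library.

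In NM roots, too, the spread was wider than is common for expressed transcripts. The highest NM value was a median of 2.06 times the lowest in the members, against 1.66 in IDs with a ratio of 4 to 8 and 1.31 in all expressed IDs. It was at least 2 times in 39 members and at least 4 times in 9. The spread within NM exceeded the spread within AM in 47 of the 70. The same counts over all expressed IDs were not made, so these counts describe the members alone and cannot be called particular to them. The members have lower NM values than expressed IDs at large (median NM mean 3.26 against 6.68 FPKM). In IDs with a ratio of 4 to 8 the median NM mean was 3.31 FPKM, near that of the members. The part that low values play in the wider spread was not tested.

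The members differed in how NM replicates 1 and 2 stood to each other. NM replicate 2 was at least 2 times NM replicate 1 in 16 members (22.9%), and NM replicate 1 was at least 2 times NM replicate 2 in 15 (21.4%). In the other 39 members neither held. Among all expressed IDs the shares of these 2 patterns were 1.64% and 2.06%, and among IDs with a ratio of 4 to 8 they were 3.90% and 7.14%. This division was noticed in the data and is untested.

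The 16 members with NM replicate 2 at least 2 times NM replicate 1 lay on few arms. There were 5 on 5BL, 3 on 5AL, 3 on 4BL, 2 on 4DL, 2 on 2AS and 1 on 5DL. Of the 27 members on chromosome groups 4 and 5, 14 (51.9%) had this pattern, against 2 of the 43 members on the other groups (4.65%). Groups 4 and 5 were set apart after these values were seen, and the gap was not tested. In Traes_2AS_056ADB1BE, Traes_5AL_A3CF2AB1B and Traes_5DL_090EC5EF4 the lowest NM library was replicate 3, and in the others it was replicate 1. The 2 most extreme were Traes_5AL_FC3E0D1A2 and Traes_5BL_72B476ADC, where NM replicate 2 was 6.68 and 6.29 times NM replicate 1. Traes_5AL_FC3E0D1A2, the most abundant member on 5A, had 180, 188 and 382 FPKM in AM and 2.49, 16.6 and 15.3 FPKM in NM.

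The chromosomes alone did not go with the pattern. Of all 13752 expressed IDs on groups 4 and 5, 217 (1.58%) had NM replicate 2 at least 2 times NM replicate 1, close to the 1.67% of the 32026 expressed IDs on the other groups. Of those 217 IDs, 14 were members (6.45%), against 13 of the other 13535 (0.0960%). Among the 39 IDs of groups 4 and 5 with a ratio of 4 to 8, 1 had it (2.56%). Members of this kind were also the more uneven in AM roots. Their AM replicate 3 was a median of 2.09 times AM replicate 1, against 1.42 times in the 15 members with the opposite NM pattern and 1.57 times in the other 39. Over the 70 members the NM replicate 2 to 1 ratio and the AM replicate 3 to 1 ratio had a Spearman correlation of 0.421. It was -0.00409 over the 154 IDs with a ratio of 4 to 8 and 0.0907 over 45188 expressed IDs. The NM replicate 3 to 1 ratio and the same AM ratio correlated at 0.272 in the members. This was 0.140 in the IDs with a ratio of 4 to 8 and 0.116 in the expressed IDs. These ratios were picked after the values were seen. Within each correlation the points share the same 4 libraries, and related copies of a gene may enter more than once.

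**Figure D3:**
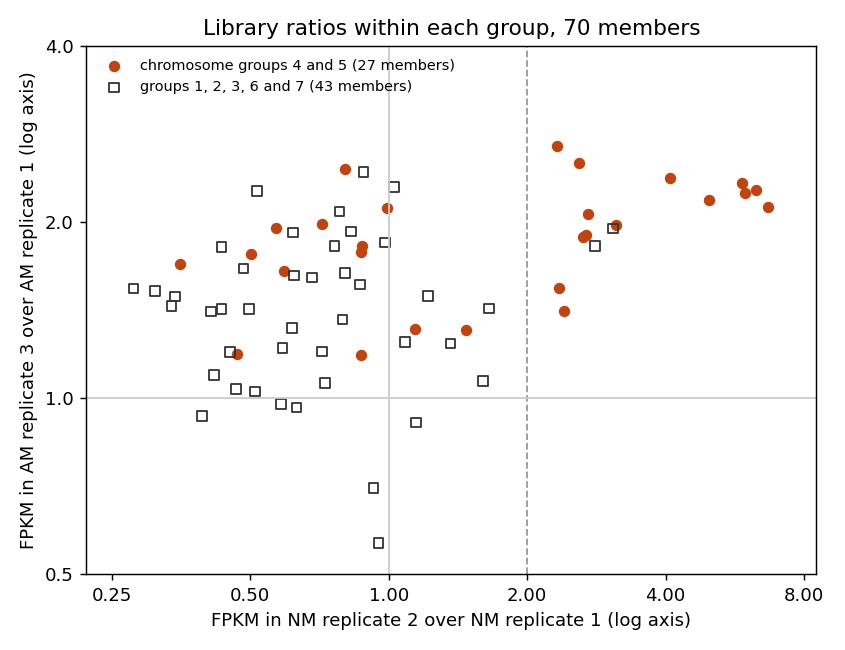
Ratio of AM replicate 3 to AM replicate 1 (vertical log axis) against the ratio of NM replicate 2 to NM replicate 1 (horizontal log axis) for the 70 members, with filled circles for chromosome groups 4 and 5 and open squares for the other groups. Right of the dashed line at 2 lie 16 members, 14 of them circles, and all 16 have an AM ratio above 1.4.

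The opposite NM pattern, with replicate 1 high, lay elsewhere. Of its 15 members, 4 were on 2BL, 3 on 7DL and 2 on 2AL, and 2 in all were on groups 4 and 5. Traes_1AL_6A527F156, Traes_2AL_A38FEE372, Traes_2DL_5197096F4 and Traes_3B_BDF4FBBCE belong to it, while Traes_1BL_6518E3320 and Traes_1DL_BDE3B9264 had NM replicate 1 highest but under 2 times NM replicate 2.

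By subgenome, 30.0% of the members were on A, 40% on B and 30.0% on D chromosomes, against 32.4%, 34.3% and 33.3% of the expressed IDs. By chromosome group, group 2 held 21 members (30.0%), against 17.9% of the expressed IDs, and group 5 held 16 (22.9%), against 15.6%. Group 4 held 11 (15.7%), against 14.5%, group 7 held 9 (12.9%), against 12.8%, group 1 held 7 (10.0%), against 12.8%, group 3 held 5 (7.14%), against 14.8%, and group 6 held 1 (1.43%), against 11.6%. Long arms carried 51 members (72.9%), against 59.98% of the expressed IDs, and short arms 15 (21.4%), against 34.3%. Among the 154 IDs with a ratio of 4 to 8 the group shares differed from those of the members. There, group 2 held 17.5%, group 3 held 22.7%, group 4 and group 6 each held 11.0%, and group 5 held 14.3%. At a 16-fold limit group 4 held 9.09% of the members. The position of groups 3 and 4 above or below the expressed IDs therefore turned with the limit. These shares were not tested, since related copies are not independent.

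Within groups the members were spread unevenly over the subgenomes. Chromosome 2A held 12 members, or 4.55 per 1000 expressed IDs, chromosome 2B held 7 (2.41 per 1000) and chromosome 2D held 2 (0.750 per 1000). Chromosome 5B held 10 (3.53 per 1000), 5A held 4 (2.11 per 1000) and 5D held 2 (0.833 per 1000). In group 7 the order differed, with 7 members on 7D (3.07 per 1000) and 1 each on 7A and 7B. Chromosomes 3A, 4A, 6A and 6B had 0 members. With a ratio of 4 to 8 there were 9 IDs on 3A, 9 on 4A, 10 on 6A and 2 on 6B.

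**Figure D4:**
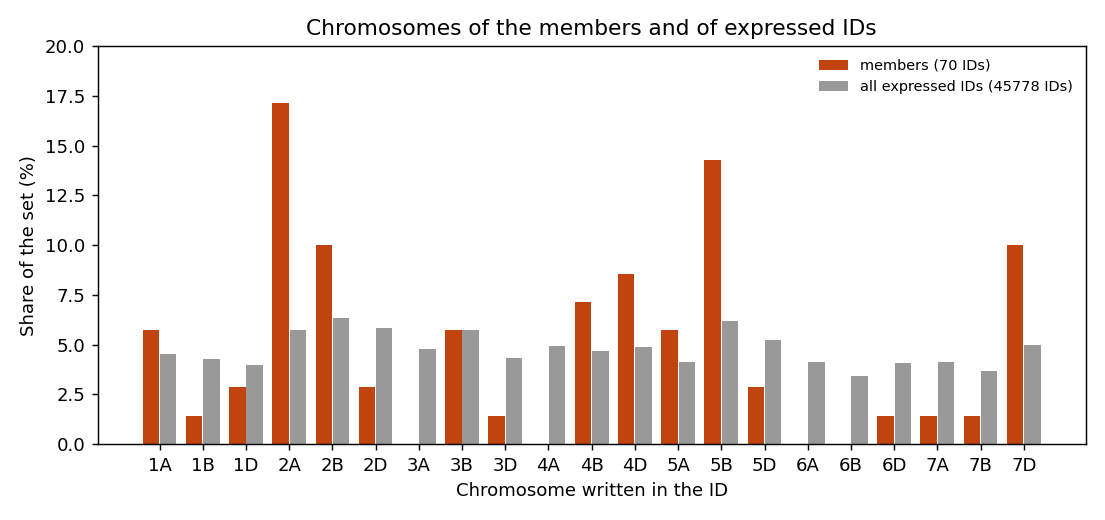
Share (%) of the 70 members (red, left bar) and of the 45778 expressed IDs (grey, right bar) on each of the 21 wheat chromosomes, as written in the ID. Members reach 17.1% on 2A and 14.3% on 5B, where the expressed IDs hold 5.76% and 6.18%, and they are missing on 3A, 4A, 6A and 6B.

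On chromosome 3B, IDs that begin with TRAES3BF carry a scaffold and gene number, so neighbours can be compared for 2 members, which were named after their values were seen. TRAES3BF061600120CFD_g had 60.5, 44.7 and 64.6 FPKM in AM and 1.74, 2.79 and 1.2 FPKM in NM. The IDs listed next to it on the scaffold did not share this. TRAES3BF061600110CFD_g was listed at 0 in every library, and TRAES3BF061600130CFD_g had 0.60, 0.57 and 0.53 FPKM in AM and 1.15, 0.62 and 0.21 FPKM in NM. On the same scaffold, TRAES3BF061600080CFD_g had 11.1, 16.6 and 16.9 FPKM in AM and 0.09, 0.10 and 2.52 FPKM in NM, below the NM floor of the members.

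The other, TRAES3BF098400060CFD_g, had 32.6, 36.4 and 44.4 FPKM in AM and 1.69, 1.34 and 1.90 FPKM in NM. Its neighbour TRAES3BF098400050CFD_g was listed at 0 in every library. On the other side, TRAES3BF098400070CFD_g was abundant in both groups, with 195, 151 and 155 FPKM in AM and 125, 94.8 and 138 FPKM in NM. These 2 members lie on different scaffolds, and the other members on 3B carry no scaffold in the ID.

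Few members duplicated one another in the table. Traes_5AL_5944A11B5 had 1 other ID with identical values, Traes_5AL_5944A11B51, and no other member had an ID within 5% of it in all 6 libraries. Of the 2415 pairs of members, 19 kept the ratio of their FPKM within 1.41 times over the 6 libraries, and 4 of these 19 (21.1%) were on the same chromosome group, against 18.7% of all pairs. The closest pair was Traes_2AL_7D6E0B79A and Traes_6DL_84E14AD8D, where the ratio varied by 1.18 times and the first averaged 3.55 times the second. Within group 7, Traes_7AL_3494CBFFA and Traes_7DL_02E7F7D6A stayed within 1.30 times of a fixed ratio. How far related copies share reads in this table was not tested.

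In a fit of AM against NM over all 64974 IDs that reached 1 FPKM in 3 or more libraries, 11.2% of IDs were called higher in AM (limma on log2(FPKM + 1), adjusted p under 0.05). All 70 members passed the filter and all 70 were called higher, which the choice of members made nearly certain, so nothing is read from it. The AM values lay wholly above the NM values in all 70 by the rule, and in 22.6% of the tested IDs. Their log2 fold changes, AM over NM, ran from 3.08 to 5.38 with a median of 4.35, and the standard errors from 0.13 to 0.69 with a median of 0.31. The smallest standard error, 0.13, was that of Traes_2BL_C26ACA550, with a log2 fold change of 4.92. The largest, 0.69, was that of Traes_4DL_977B1E948, the most abundant member, with 5.08. The first had even values in both groups, and the second had uneven values in both. The NM values of the first lie near 1 FPKM, where adding 1 narrows the spread. With 0.1 added in place of 1, its log2 fold change was 5.62, a shift that its standard error does not cover.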

How the data were processed

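Messenger RNA was read as 150 bp pairs from about 100 mg of root per sample, per the labels' protocols. The authors deposited FPKM values in 1 column for each library, as the file headers name them, and all 6 columns were matched to sample titles, with 0 columns left unused. The submitters' processing notes name the tools TopHat2, Cufflinks, RSEM and edgeR, but no roles. The annotation and genome build were not given in the sources used here. FPKM values have been divided by transcript length and library size, so levels can be compared between IDs, while fragments and counting errors are unknown.

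Members were taken by the limits given in the report. The members, the lists and the tests were chosen with earlier results of these data known. The rule for named IDs took the 6 highest AM means, the 6 largest ratios, the highest AM mean on each chromosome, the 3 highest NM means, the 3 most and least even AM triplets, the 3 IDs on each side of the 8-fold limit, and 3B members that share a scaffold, of which there were 0. The AM against NM fit used log2(FPKM + 1), limma 3.58.1 under R 4.3.3, its trend option, no block, and Benjamini-Hochberg adjustment over 64974 IDs. Fold changes on this scale understate the change of low values. In simulated data with the spreads of these 64974 IDs, the IDs to be raised were all picked from the more abundant ones. There, limma called 82 of 100 IDs raised 8-fold and 25 of 100 raised 2-fold, with 5 false calls. Recovery of IDs at the low NM levels of the members (median NM mean 3.26 FPKM) was not tested. Position was read from the chromosome or arm in the ID. Other tables used Python 3.11.15 and pandas 2.3.3. Alternatives changed the fold limit, the NM floor, scaling, pseudocount, filter, replicate block and each replicate in turn. The labels call the replicates biological without naming plants or pots.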

Additional observations from a re-analysis of the deposited data

How the results depend on the processing

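No fold change of a named member changed sign, which the choice of members made nearly certain. Their sizes depended on the pseudocount. At 0.1 in place of 1 the log2 fold change of Traes_2BL_C26ACA550 went from 4.92 to 5.62. That of Traes_7AL_3494CBFFA went from 3.78 to 4.52, and that of the more abundant Traes_4BL_5F717F1BE from 4.86 to 4.91. The number of members became 224 or 22 at a 4-fold or 16-fold limit and 34 or 15 at an NM floor of 2 or 5 FPKM. It became 70 to 110 when any single library was dropped. By construction, fewer or looser conditions can only add IDs and stricter ones can only remove them. A floor of 0.5 FPKM gave 102 and median-ratio rescaling 67. Over all IDs, leaving out 1 library gave 4089 to 6065 higher and 2124 to 4071 lower in AM, against 7272 and 4637. Under a replicate block these counts were 6323 and 4094, and 70 members were still called. Deviations of same-numbered libraries correlated at 0.124, 0.0708 and 0.0437. This cannot decide whether the numbers are pairs, since deviations sum to 0 within a group and differently numbered libraries were not compared. The main fit did not take the numbers as pairs. All 70 members were called higher in each of the 10 alternative fits, which their choice made nearly certain. The members' share in NM was 0.0387% of FPKM summed over chromosome IDs. Group 3 held 17.9% of IDs at the 4-fold limit, above its 14.8% of expressed IDs, where 7.14% of members lay below it. Group 4 held 12.5% at 4-fold and 9.09% at 16-fold, below its 14.5% of expressed IDs, where 15.7% of members lay above it. Group 6 held 8.04% at 4-fold and 0% at 16-fold. After rescaling, AM replicate 1 was highest in 3 members and AM replicate 3 in 62. At the 16-fold limit 3 members had NM replicate 2 at least 2 times NM replicate 1, and the cause was not tested. Unknown depth limits the values near 1 FPKM.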
